A study of Mus musculus with 7 samples.

Results

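P19 embryonal carcinoma cells and NIH3T3 fibroblasts had CTCF peaks in common at 18411 regions, and at 1716 of these CTCFL had a peak in P19 cells and none in 3T3 cells. These P19-only CTCFL regions were chosen from the deposited peak lists: peaks of all 4 lists that shared at least 1 bp were merged into 65700 regions, and a region was kept where it held a peak of P19 CTCFL, P19 CTCF and 3T3 CTCF but none of 3T3 CTCFL. They made up 2.61% of all merged regions (exact 95% interval 2.49 to 2.74) and 9.32% of the regions with CTCF in both lines (8.90 to 9.75). With scores of at least 100 in every list 412 regions met the rule, 3.98% of those with CTCF in both lines. When the lists were cut to equal length, the 5866 strongest peaks of each, 348 met it, 18.97%. Both settings also drop weak 3T3 CTCFL peaks, so regions outside the 1716 can enter. Presence and absence of these peaks are the selection itself and not a result.

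CTCF is a zinc-finger protein that binds a long GC-rich DNA motif, stops cohesin-driven loop extrusion and so helps to set the borders of chromatin domains. CTCFL, also called BORIS, is its paralogue. Its zinc fingers closely resemble those of CTCF and recognise a very similar motif, whereas the parts of the protein on either side of them differ. In mice it is normally made in male germ cells, and when it is expressed in other cells it occupies a subset of CTCF sites together with sites of open chromatin.

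The series profiled both factors by chromatin immunoprecipitation and sequencing with the CTCF antibody N2.2 and the CTCFL antibody S6. Peak lists of 4 of its 7 samples are analysed here: CTCFL and CTCF in P19 cells, and CTCFL and CTCF in 3T3 cells. All 4 came from cells labelled as carrying the stable integrates pBI-EGFP-FLAG-mCtcfl and pTA-N, a tagged mouse Ctcfl construct under doxycycline control. Per the labels' protocols, the medium held 2 μg/ml doxycycline, and induction meant 48 h of growth without the drug. The P19 titles nevertheless call those cells controls, so whether CTCFL was induced in the P19 cells cannot be settled from the labels. A comparison of P19 with 3T3 therefore holds both the cell line and, possibly, the level of CTCFL, and these cannot be told apart. The libraries of 3T3 cells without the construct and the P19 input DNA were not analysed here. Peak positions carry no expression values, so the labelled cell types could not be checked against marker genes.

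There was 1 library per group. Differences below are therefore not checked against replicates, and no test was run. Intervals cover counting error only and treat regions as independent although neighbouring regions are not. Those of shares and medians are exact 95% intervals, for a median from its order statistics. Those of differences combine the intervals of both values and are approximate. The lists held 5866 P19 CTCFL, 32277 P19 CTCF, 16764 3T3 CTCFL and 45653 3T3 CTCF peaks. The number of reads behind each list is unknown. A region without a 3T3 CTCFL peak is one at which the authors' caller listed none, which is not a measured absence of CTCFL. The 3T3 CTCFL list was the longer of the CTCFL lists. The peak score is the authors' value and appears to be the caller's p-value on a log10 scale multiplied by −10. It is used within a list only, and where a region held several peaks of a list the highest score was taken. Positions are mm9 coordinates. No gene or DNA sequence is given for any region, since the reference tables used here are of another build.

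Most P19-only CTCFL regions were compact sites with 1 peak of each of the 3 lists. A single P19 CTCFL peak was present in 1706 of them and a single P19 CTCF peak in 1700. A single 3T3 CTCF peak was present in 1624, while 92 held more, at most 4. The regions had a median width of 803 bp (793 to 814). Regions with CTCFL in both lines were wider, at 967 bp (945 to 987), and common CTCF regions without CTCFL were narrower, at 686 bp (682 to 689). Merging more peaks makes a region wider by construction, so the widths of single peaks are given further below.

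The P19 CTCFL peaks of these regions were typical of their list. Their scores ran from 50.02 to 633, with a median of 74.5 (72.9 to 76.6), against a list median of 75.1. Regions with CTCFL in both lines had a median P19 CTCFL score of 101 (96.3 to 105), so the P19-only regions lay lower, with a difference of −26.5 (−30.8 to −21.4). Scores of 50 to 60, next to the caller's limit, were found at 441 regions (25.7%, 23.6 to 27.8). Scores from 150 to 300 were found at 138 regions (8.04%, 6.80 to 9.43), and 18 regions scored 300 or more. The 2 distributions overlapped widely.

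P19 CTCF was strong at these regions. Its median score was 221 (213 to 230), against 141 (139 to 143) at common CTCF regions without CTCFL, a difference of 80.8 (72.3 to 89.4). At regions with CTCFL in 3T3 only the median P19 CTCF score was likewise 141 (134 to 148). Regions with CTCFL in both lines had 210 (200 to 222), and the interval of the difference, 11.7 score units, ran from −3.25 to 24.8. Among the P19-only regions 1398 lay above the P19 CTCF list median (81.5%, 79.5 to 83.3), and 561 were in the highest 10% of that list (32.7%, 30.5 to 35.0). That share was 32.4% (29.9 to 34.9) at regions with CTCFL in both lines, 13.7% at regions with CTCFL in 3T3 only and 11.8% (11.2 to 12.3) at regions without CTCFL. In P19 CTCF score the regions thus resembled those bound by CTCFL in both lines more than those bound by CTCFL in 3T3 only.

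3T3 CTCF gave another order. Its median score was 196 (185 to 205) at P19-only CTCFL regions, against 149 (145 to 151) at common regions without CTCFL, a difference of 47.8 (36.2 to 56.9). It was 1658 (1507 to 1754) at regions with CTCFL in both lines and 1352 (1246 to 1463) at regions with CTCFL in 3T3 only. The interquartile range of the P19-only regions, 108 to 403, lay below that of the regions with CTCFL in both lines, 667 to 2865. In the P19-only class 234 regions were in the highest 10% of the 3T3 CTCF list (13.6%, 12.0 to 15.4), against 1029 of 1353 regions with CTCFL in both lines (76.1%, 73.7 to 78.3). Regions with CTCFL in 3T3 only had 70.9%, and regions without CTCFL had 9.81% (9.32 to 10.3), below the P19-only share. On lists of equal length, the difference of 3T3 CTCF from regions without CTCFL turned to −44.5, with an interval that ran from −147 to 66.6, and that of P19 CTCF was 41.8.

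**Figure D1:**
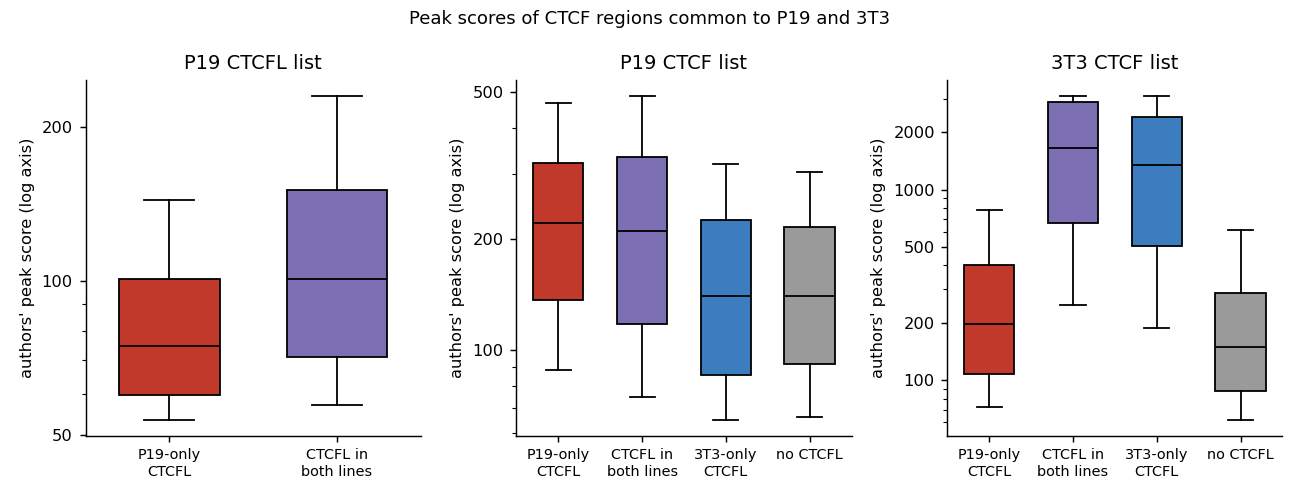
The authors' peak scores in the P19 CTCFL, P19 CTCF and 3T3 CTCF lists (log axes) for the common CTCF regions, split by where CTCFL had a peak. Boxes span the quartiles with the median as a line, and whiskers run from the 10th to the 90th percentile; the P19-only regions, leftmost, have medians of 74.5, 221 and 196, and in 3T3 CTCF they lie near the regions without CTCFL (149) and far below both groups with 3T3 CTCFL (1658 and 1352).

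The share of common CTCF regions with P19-only CTCFL was examined over 10 equal groups of CTCF score, each of 1841 or 1842 regions. By P19 CTCF score it was 3.53% (2.73 to 4.48) in the lowest group, 7.06% in the fifth and 21.2% (19.4 to 23.2) in the highest. By 3T3 CTCF score it was 6.41% (5.33 to 7.62) in the lowest group, 13.7% (12.1 to 15.3) in the eighth and 2.88% (2.16 to 3.75) in the highest. The highest 3T3 group is also the one in which 75.6% of regions had a 3T3 CTCFL peak and so could not belong. Among the regions without 3T3 CTCFL, P19 CTCFL was present at 6.49% (5.40 to 7.72) in the lowest 3T3 CTCF group, 16.0% (14.0 to 18.2) in the ninth and 11.8% (8.97 to 15.2) in the highest, where 449 regions were left. The drop in the highest group was thus smaller once regions with 3T3 CTCFL were set aside, from the ninth group's 16.0% to 11.8% in place of 10.7% to 2.88%.

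**Figure D2:**
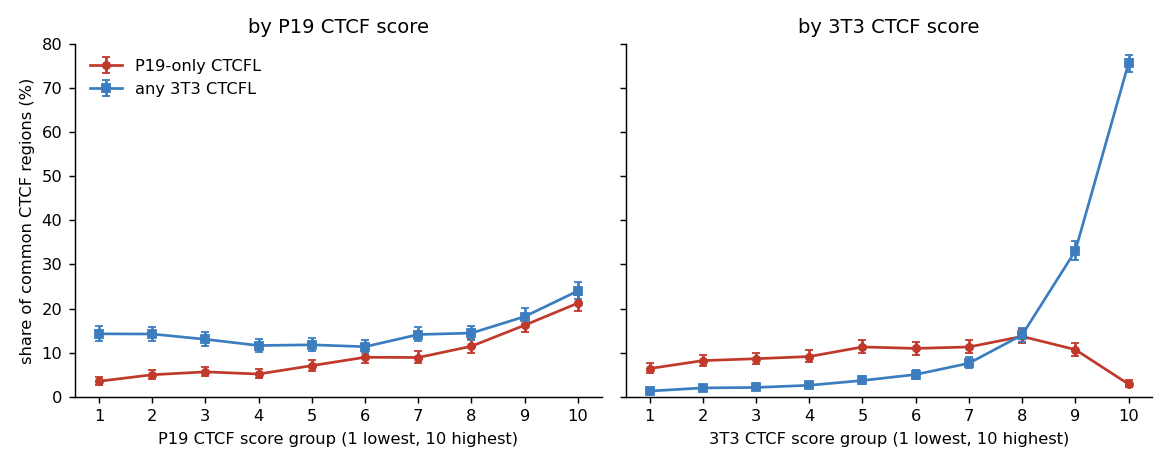
Share of common CTCF regions with P19-only CTCFL (red circles) and with any 3T3 CTCFL peak (blue squares), over 10 groups of P19 CTCF score and of 3T3 CTCF score, with exact 95% intervals as bars. The red share reaches 21.2% in the highest P19 CTCF group, whereas by 3T3 CTCF score it peaks at 13.7% in group 8 and is 2.88% in group 10, where the blue share is 75.6%.

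Both CTCF scores were then divided into 4 equal groups each and crossed. In the highest group of P19 CTCF, the share of P19-only CTCFL regions was 17.97%, 19.1%, 21.6% and 13.6% over rising groups of 3T3 CTCF. In the lowest group of P19 CTCF it was 4.26%, 6.42%, 4.48% and 2.39%. The share was thus higher with strong P19 CTCF at every level of 3T3 CTCF, and lowest in the highest group of 3T3 CTCF at both of these levels of P19 CTCF. Compared with regions without CTCFL inside each of the 10 groups of 3T3 CTCF score, P19-only regions had the higher median P19 CTCF score in 10 of 10 groups, by 71.9 units on an average weighted by their number. Inside groups of P19 CTCF score, the 3T3 CTCF median was higher in 10 of 10 groups, by 23.6 units.

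Seen from CTCFL, 3069 common CTCF regions carried it in P19, and 1716 of these had none in 3T3 (55.9%, 54.1 to 57.7). Over all 18411 common CTCF regions, only 2708 had a 3T3 CTCFL peak (14.7%, 14.2 to 15.2). P19 CTCFL was present at 49.96% of common regions with 3T3 CTCFL and at 10.9% of those without. Regions with P19 CTCFL thus lacked 3T3 CTCFL less often than common CTCF regions in general. The share of P19 CTCFL regions without 3T3 CTCFL was 92.9% (87.0 to 96.7) in the lowest group of 3T3 CTCF score and 88.9% in the fifth. It was 40.3% (35.9 to 44.8) in the ninth and 6.68% (5.04 to 8.64) in the highest, where 53 regions lacked a 3T3 CTCFL peak and 741 had one. Over all common CTCF regions, a 3T3 CTCFL peak was present at 1.30%, 3.69%, 33.1% and 75.6% of these groups in turn. Lacking one thus became rarer with 3T3 CTCF score among common regions in general. Along the P19 CTCFL score, the share of P19 CTCFL regions without 3T3 CTCFL was 71.0% (65.6 to 76.0) in the lowest group, with scores up to 54.6. It was 27.4% (22.5 to 32.7) in the highest, with scores from 185. Strong P19 CTCFL sites therefore more often had 3T3 CTCFL than weak ones, yet 84 of the 307 strongest did not. Along the P19 CTCF score the share stayed between 38.7% in the lowest group and 62.0% in the sixth, and was 53.9% in the highest. With peaks resized to 200 bp the share in the highest 3T3 CTCF group was 8.71%, and with P19 CTCFL scores of at least 100 it was 2.46%.

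**Figure D3:**
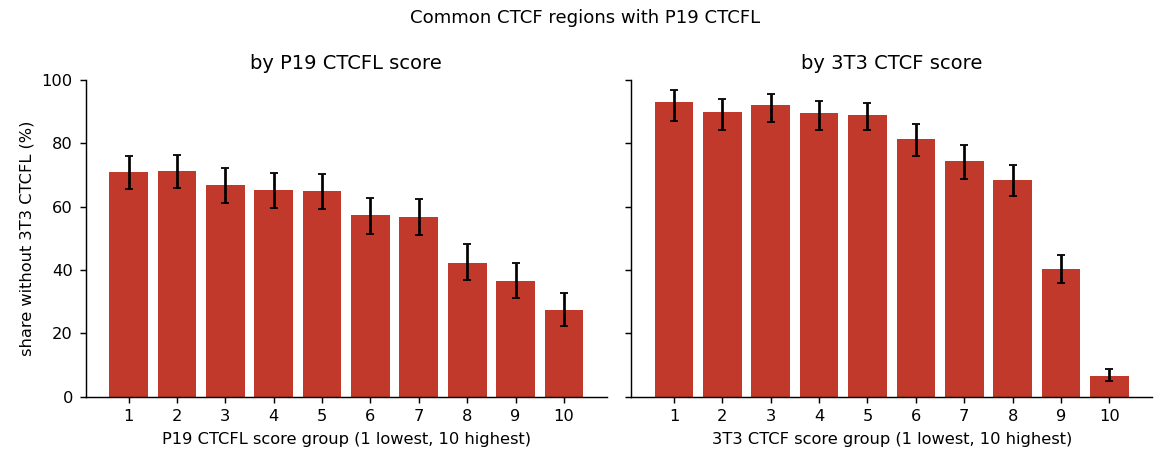
Share without a 3T3 CTCFL peak among the common CTCF regions with P19 CTCFL, over 10 groups of P19 CTCFL score (left) and of 3T3 CTCF score (right), with exact 95% intervals. The bars are 71.0% in the lowest and 27.4% in the highest P19 CTCFL group, and 92.9% in the lowest and 6.68% in the highest 3T3 CTCF group. Over all common CTCF regions, 3T3 CTCFL was present at 1.30% of the lowest and 75.6% of the highest 3T3 CTCF group.

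The 10 strongest CTCFL peaks among the P19-only regions differed in their CTCF. The first, chr11:96882744-96884181, scored 633 for P19 CTCFL, 702 for P19 CTCF and 315 for 3T3 CTCF, the highest of 3 separate 3T3 CTCF peaks. The second, chr11:120766572-120767313, scored 603, 1145 and 337 in the same order. The third, chr17:4625980-4626938, scored 558 for P19 CTCFL and had the highest P19 CTCF score of all 1716 regions, 1338, but a 3T3 CTCF score of 51.5, just above the caller's limit.

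Next in P19 CTCFL score came chr6:34871698-34872597, with 469 for P19 CTCFL, 359 for P19 CTCF and 225 for 3T3 CTCF. At chr17:69190393-69191593 the scores were 465 for P19 CTCFL, 176 for P19 CTCF and 124 for 3T3 CTCF, with the nearest 3T3 CTCFL peak 233928 bp away. At chr15:85310840-85311529 they were 424, 259 and 136. The P19 CTCFL peak there, 690 bp wide, spanned the whole region, with P19 CTCF over 458 bp and 3T3 CTCF over 347 bp.

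Of the other leading regions, chr17:31029436-31030077 had 423 for P19 CTCFL, 426 for P19 CTCF and 99.3 for 3T3 CTCF. The region chr4:147661859-147662813 had 415 for P19 CTCFL, 844 for P19 CTCF and 205 for 3T3 CTCF. At chr17:23883231-23883927 P19 CTCFL scored 400, although both CTCF scores, 87.1 in P19 and 101 in 3T3, were below their list medians of 117 and 104. At chr19:3962391-3963183 the scores were 386 for P19 CTCFL, 237 for P19 CTCF and 105 for 3T3 CTCF. None of the 10 lay in the highest 10% of the 3T3 CTCF list, which held 13.6% of all P19-only regions. Chromosome 17 held 4 of the 10 and 5.19% of all P19-only regions. Neither count was tested.

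The 5 regions with the highest P19 CTCF scores all had P19 CTCFL scores in the upper part of that list, between its percentiles 81.7 and 99.9. After the chromosome 17 region, the highest P19 CTCF scores were at chrX:72918756-72920090 (1155, with 122 for P19 CTCFL and 946 for 3T3 CTCF) and chr7:7230335-7231553 (1147, with 164 and 435). The fourth was chr11:120766572-120767313, second in P19 CTCFL score and given above. The fifth, chr4:137519743-137520789, had 929 for P19 CTCF, 218 for P19 CTCFL and 118 for 3T3 CTCF. The 5 highest 3T3 CTCF scores stood beside P19 CTCFL scores below the median of their list, at percentiles 9.1 to 38.0. At chr1:180460267-180461318 3T3 CTCF scored 3129 and P19 CTCFL 55.2, with a 3T3 CTCFL peak 351 bp outside the region. Both chr6:127510960-127512078 and chr16:96372905-96373596 had a 3T3 CTCF score of 3100, a value shared by 505 peaks of that list, and P19 CTCFL scores of 53.2 and 53.8. The last of the leading 5, chr2:118525700-118526516 and chr2:30649814-30650850, had 2859 and 2824 for 3T3 CTCF and 65.2 and 66.7 for P19 CTCFL.

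Across the 1716 regions the scores of P19 CTCFL and P19 CTCF were weakly related (Spearman's rho 0.133; Pearson's r of log10 scores 0.153). P19 CTCFL and 3T3 CTCF showed next to no relation (rho 0.00419, r −0.0121). P19 CTCF and 3T3 CTCF had a rho of 0.308 (r 0.308), close to the 0.258 found over common regions without CTCFL. These are correlations across regions, each list from 1 library, and not across replicates. In bands of P19 CTCFL score, the median P19 CTCF score was 196 at CTCFL scores of 50 to 60, 221 at 75 to 100, 291 at 150 to 300 and 385 in the 18 regions at 300 or above. The median 3T3 CTCF score over the same bands was 189, 185, 182 and 164. In the bands between them, 60 to 75 and 100 to 150, it was 211 and 211, so it did not fall steadily.

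The peaks of a region were closely aligned. In 1678 of the 1716 regions the 3 highest peaks shared at least 1 bp (97.8%, 97.0 to 98.4), and where they did the shared stretch had a median length of 371 bp. Because overlapping peaks were merged into regions, that share is largely given by the selection. The centre of the P19 CTCFL peak lay a median of 68.0 bp (64.0 to 71.0) from the centre of the P19 CTCF peak and 74.3 bp (70.5 to 79.0) from that of the 3T3 CTCF peak. Centres of P19 CTCFL and P19 CTCF were within 100 bp of each other in 1142 regions (66.6%, 64.3 to 68.8), against 61.1% (58.5 to 63.7) of the regions with CTCFL in both lines. The P19 and 3T3 CTCF centres were 64.5 bp apart (60.5 to 67.5) at P19-only regions, 114 bp (106 to 122) at regions with CTCFL in both lines and 59.0 bp (58.0 to 60.5) at regions without CTCFL. Peak centres stand in for summits, which the lists do not give.

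P19 CTCFL peaks were largely covered by the P19 CTCF peak and less so by that of 3T3. Over the whole lists 3T3 CTCF peaks were also narrower, with a median of 342 bp against 636 bp for P19 CTCF. The part of this width difference in the cover was not tested. A median of 98.8% of the P19 CTCFL peak was covered by the P19 CTCF peak, and in 791 regions (46.1%) it lay wholly inside it. In 188 regions (10.96%) the CTCFL peak instead held the whole CTCF peak. The corresponding shares at regions with CTCFL in both lines were 30.8% and 21.3%. The 3T3 CTCF peak covered a median of 67.8% of the P19 CTCFL peak, which lay wholly inside it in 158 P19-only regions (9.21%) and held all of it in 769 (44.8%). At regions with CTCFL in both lines the P19 CTCFL peak lay wholly inside the 3T3 CTCF peak in 24.8% and held all of it in 25.9%, with a median of 82.1% covered. At P19-only regions the P19 CTCFL peaks had a median width of 574 bp, the P19 CTCF peaks of 727 bp and the 3T3 CTCF peaks of 426 bp. At regions with CTCFL in both lines they were 655 bp, 721 bp and 676 bp, so the peak that differed most in width was that of 3T3 CTCF, by −250 bp (−271 to −226). At regions without CTCFL the P19 CTCF peaks measured 664 bp and the 3T3 CTCF peaks 384 bp.

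The widest P19-only regions were chr6:39154533-39157343 with 2811 bp, chr6:125552949-125555083 with 2135 bp and chr4:141639133-141641193 with 2061 bp. The first held 2 P19 CTCFL peaks along a 3T3 CTCF peak of 2295 bp, with a P19 CTCF score of only 61.4. In the second a P19 CTCF peak spanned the whole region, while the 3T3 CTCF peak, with a score of 2292, covered 367 bp.

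Some regions lay only just inside the selection. The lowest P19 CTCFL scores were 50.02 at chr1:182849579-182850213, 50.04 at chr2:177981919-177982561, 50.1 at chr5:114223429-114224108 and 50.2 at chr7:148580680-148581249. Their P19 CTCF scores were 487, 242, 242 and 139. On the side of 3T3 CTCFL, the nearest peak lay 15 bp beyond chr1:74849341-74850353, 24 bp beyond chr4:126912714-126913734, 40 bp beyond chr11:77321265-77322210, 46 bp beyond chr17:27701261-27702099 and 47 bp beyond chr14:56440930-56441938. Just outside the selection, the 3T3 CTCFL peak overlapped by 1 bp at chr12:58676748-58677591, by 8 bp at chr12:66273613-66274552 and by 49 bp at chr4:125598532-125599987, where it scored 69.1, 67.7 and 52.3.

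A 3T3 CTCFL peak was often in the neighbourhood without touching. The nearest lay a median of 18029 bp away (16539 to 20149) from P19-only regions and 32116 bp (31061 to 33175) from common regions without CTCFL. Within 10 kb of one were 605 P19-only regions (35.3%, 33.0 to 37.6) and 3389 of 13987 regions without CTCFL (24.2%, 23.5 to 24.9), a difference of 11.03 points (8.65 to 13.4). Over both kinds together the share was 25.4%. Within 1 kb were 119 P19-only regions (6.93%, 5.78 to 8.24) and 483 regions without CTCFL (3.45%, 3.16 to 3.77), against 3.83% over both. On lists of equal length the 10 kb difference was 1.88 points (−2.89 to 6.99), and with P19 CTCFL scores of at least 100 it was 17.8. Averaged inside groups of P19 CTCF score the 10 kb difference was 9.32 points, higher for P19-only regions in 10 of 10 groups. Inside groups of 3T3 CTCF score it was 9.81 points, higher in 9 of 10, and ran from −6.93 to 20.1 points over the groups.

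Of the 119 regions with a 3T3 CTCFL peak within 1 kb, that neighbouring peak sat on 3T3 CTCF alone in 59, on CTCF of both lines in 18, on P19 CTCF alone in 1 and without CTCF in 41. The same split was not computed for other 3T3 CTCFL peaks, so whether these counts are particular to the 119 cannot be told. The surroundings of P19-only regions were denser than those of regions without CTCFL in every list. Within 50 kb of the centre there were on average 0.872 other regions with P19 CTCFL, against 0.582 around regions without CTCFL. For P19 CTCF these means were 3.48 and 2.75, for 3T3 CTCFL 2.27 and 1.58, and for 3T3 CTCF 5.89 and 4.38. Around regions with CTCFL in both lines they were 0.958, 3.48, 2.70 and 6.48 in the same order. The part of this density in the shorter distance to 3T3 CTCFL was not tested.

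**Figure D4:**
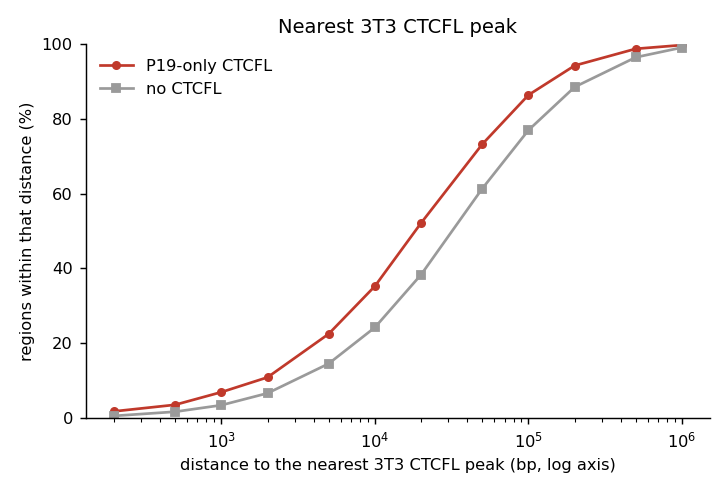
Share of P19-only CTCFL regions (red circles) and of common CTCF regions without CTCFL (grey squares) that lie within a given distance of a 3T3 CTCFL peak (log axis). At each of the plotted distances the P19-only curve is the higher, with 35.3% against 24.2% at 10 kb and 86.4% against 77.0% at 100 kb.

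P19-only regions were spread over all autosomes and the X chromosome. Chromosome 11 held 198 of them, 13.2% of its 1498 common CTCF regions (11.5 to 15.0), against 8.73% ± 1.86 (SD over the other 19 chromosomes). The X chromosome had 14 in 329 common regions, 4.26% (2.35 to 7.04), the lowest share. Chromosomes 13 and 14 followed with 6.32% and 6.45%, and chromosome 8 was second to 11 with 10.96% (9.04 to 13.1). CTCFL in both lines was also frequent on chromosome 11, at 11.1% of common regions against 6.97% ± 1.77 over the others. Chromosome 19 was higher still, at 11.8%. CTCFL in 3T3 only was not frequent on chromosome 11, at 7.61% against 7.24% ± 1.18. Among common regions with P19 CTCFL, the share that lacked 3T3 CTCFL on chromosome 11 was 54.2% (49.0 to 59.4), close to the 55.9% of all chromosomes.

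**Figure D5:**
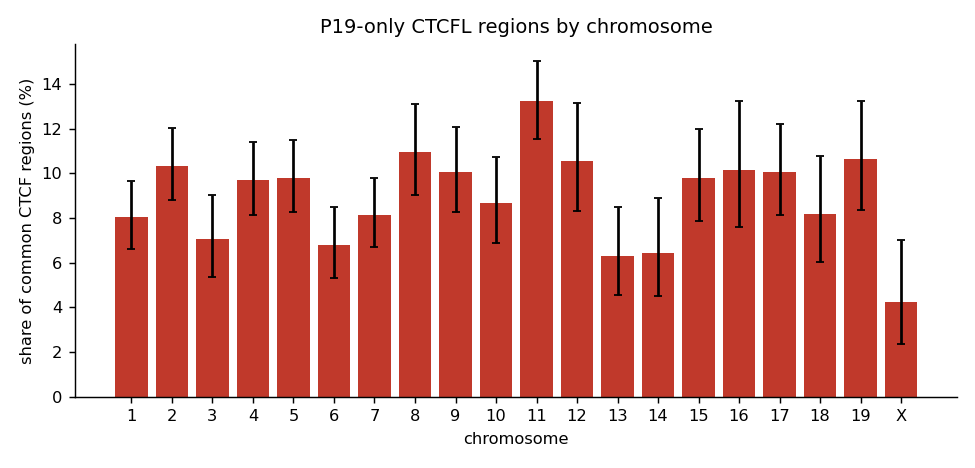
Share of the common CTCF regions of each chromosome that carry CTCFL in P19 only, with exact 95% intervals. Chromosome 11 is highest at 13.2% and the X chromosome lowest at 4.26%.

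The regions formed few clusters of their own. The nearest other P19-only region lay a median of 184283 bp away (165057 to 208486), and 122 of the 1716 had one within 10 kb (7.11%, 5.94 to 8.43). After a P19-only region, the next common CTCF region along the chromosome was another one in 186 cases (10.8%, 9.41 to 12.4), against 9.18% (8.74 to 9.62) after a common region of another kind and 9.33% over all. The difference was 1.66 points (0.163 to 3.29). Single regions made up 1371 of the runs, and there were 136 runs of 2, 19 of 3 and 4 of 4.

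The runs of 4 spanned 34.8 to 50.4 kb. One on chromosome 5, 66710257 to 66760670, had P19 CTCFL scores of 60.7, 58.7, 58.9 and 167. Another on the same chromosome, 113602381 to 113650842, had 125, 193, 89.4 and 200, and its P19 CTCF scores were all strong, between 353 and 885. On chromosome 7, 19722078 to 19758931, the CTCFL scores were 78.8, 66.7, 86.3 and 54.2. On chromosome 19, 5001566 to 5036346, they were 53.7, 137, 137 and 82.0, while 3T3 CTCF ranged between 61.3 and 2479. Runs were thus mixed in strength, in CTCFL as in CTCF.

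The regions fell into 879 of the 2113 windows of 1 Mb that held a common CTCF region, and 52 windows held 5 or more. The densest, from 140000001 on chromosome 4, held 11 of them among 43 common CTCF regions and 4 regions with CTCFL in both lines. Their P19 CTCFL scores ran from 52.8 to 291, P19 CTCF from 63.7 to 584 and 3T3 CTCF from 50.3 to 1131. The strongest CTCFL peak there was at chr4:140938242-140939199, with 225 for P19 CTCF and 104 for 3T3 CTCF. The next window, from 79000001 on chromosome 10, held 9 among 51 common regions, a number shared by the windows from 115000001 and 116000001 on chromosome 11. On chromosome 10 the P19 CTCFL scores ran from 56.4 to 150, and the region with the highest of them, chr10:79577171-79577725, had a 3T3 CTCFL peak 640 bp away.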

How the data were processed

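Chromatin immunoprecipitation libraries of P19 and 3T3 cells were sequenced from 10 ng of DNA, per the labels' protocols. Builds mm9 and hg19 and the tools MACS 1.4, Bowtie, SAMtools and FastQC appear, without roles, in the submitters' processing notes. None of the settings, read depth, pooling or control library is given in the sources used here. The deposited lists give positions, with starts converted here to count from 1, and a score per peak by the authors' caller, which depends on depth and control. Positions were read as mm9, the mouse build in those notes. The gene table at hand is of another build, GRCm38.p6, so no coordinates of it were used, and the gene and motif steps were not run. Peaks reached past the last gene of that table on 10 of 20 chromosomes, which by itself does not show the build.

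Peaks sharing at least 1 bp were merged, and shares, medians and distances between edges or centres were computed per region. Score groups hold equal numbers of common CTCF regions. Intervals of differences combine those of both values. Regions and comparisons were chosen with earlier results of these data known. Named regions follow a rule of highest and lowest scores, distance, width, density and runs. Alternatives were other overlaps, score limits, list lengths and autosomes. The merging and distances were checked on simulated data and against bedtools 2.31.1. Tables were handled with pandas 2.3.3 and numpy 2.4.6, intervals computed with SciPy 1.17.1 and plots drawn with matplotlib 3.10.9, under Python 3.11.15.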

Additional observations from a re-analysis of the deposited data

Results flagged for a closer look

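Contrasts of the P19-only CTCFL regions with another class were singled out where they had opposite signs in the 2 cell lines. Of 6 contrasts of CTCF score or peak width, 4 did. Whether P19 and 3T3 differ was not tested, since each had 1 library, and scores of different lists are on different scales.

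Against regions with CTCFL in both lines, the median CTCF score of P19-only regions was higher in P19 by 11.7 (−3.25 to 24.8) and lower in 3T3, with a difference of −1462 (−1558 to −1311). The median CTCF peak width differed by 6.0 bp in P19 (−13.2 to 19.5) and by −250.0 bp in 3T3. Both P19 intervals include 0, so in P19 the direction is not settled.

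Against regions with CTCFL in 3T3 only, the median CTCF score was higher in P19 by 80.8 (69.5 to 91.4) and lower in 3T3, with a difference of −1156 (−1268 to −1049). The CTCF peak width differed by 37.0 bp in P19 (17.0 to 52.8) and by −131.0 bp in 3T3 (−153 to −110). Both other classes hold a 3T3 CTCFL peak, which the P19-only regions lack by selection.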

How the results depend on the processing

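No paired analysis was possible because there was only 1 library per group, which also left no replicate to leave out. The gene and motif steps were not run for want of a matching build. Of the values under alternatives listed at the outset, 47 stayed near the reported value (within its interval, or within 1.5 times for the number of regions), 24 moved beyond and 1 reversed. Further alternatives, chosen after seeing the data, gave 13 values that stayed and 8 that moved. Score limits and equal list lengths remove weak peaks by construction. Where they remove 3T3 CTCFL peaks, regions that had one can enter the P19-only class. Other causes were not tested. Read depth is unknown, so which missing 3T3 CTCFL peaks depth explains cannot be told.

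With scores of at least 100 in every list, there were 412 P19-only regions, 3.98% of the common ones. Their median CTCF score exceeded that of regions without CTCFL by 111 in P19 and 89.5 in 3T3. Within 10 kb of 3T3 CTCFL lay 20.4%, 8.18 points above regions without CTCFL, and P19 CTCFL regions lacked 3T3 CTCFL in 100% of the lowest and 4.64% of the highest 3T3 CTCF score group. With that limit on P19 CTCFL alone, the values were 437 regions, 2.37%, 112 in P19, 42.8% within 10 kb, 17.8 points, 78.6% and 2.46%. With lists of equal length they were 348 regions, 18.97%, 41.8 in P19, −44.5 in 3T3 (reversed), 18.97% within 10 kb and 1.88 points. Without regions that had 3T3 CTCFL within 1000 bp, 8.67% of common regions were left and 30.4% lay within 10 kb. Both values are lower by construction, since the regions left out had counted towards both. Peaks resized to 200 bp gave 8.71% in the highest group.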
